A study of Mus musculus with 4 samples.

Results

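The miRNAs described here are the products of the miR-17-92 cluster and of its paralogs, the miR-106a-363 cluster, the miR-106b-25 cluster and the single hairpin miR-92b. They were taken by name, as every row whose hairpin was miR-17, miR-18a, miR-18b, miR-19a, miR-19b, miR-20a, miR-20b, miR-25, miR-92a, miR-92b, miR-93, miR-106a, miR-106b or miR-363, whichever arm it was. There were 10 such rows among the 389 mature miRNAs of the deposited table, among them mmu-miR-92a-3p and mmu-miR-92b-3p (the mouse prefix mmu is left out from here on). Small RNA had been sequenced from exosome-enriched preparations of the culture supernatant of C8-D1A, an established mouse cell line of astrocytes labelled wild type, so that all 4 sequenced preparations (1 library each) came from 1 line. The 2 control preparations came from cells kept at 37 °C (8 h in the sample labels, 2 h in the culture methods). The 2 heat-stressed preparations came from cells held at 42 °C for 2 h and rewarmed at 37 °C for 6 h. Both groups grew in medium with 10% fetal bovine serum, which carries vesicles and miRNAs of its own. The comparison asks which miRNAs in the preparations differ after heat stress. Since each preparation is a bulk sample, fewer vesicles of a kind and less of a miRNA per vesicle cannot be told apart.

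The deposited values are normalized, and every value of a preparation was, within 1e-06 of a step, a whole multiple of a step particular to that preparation. Taking a step as 1 read, miRNA reads per preparation ran from 43675 to 100933. A value of 0 then leaves room for 3 reads, equal to 4.06 in control preparation 1, 2.35 in control preparation 2, 2.37 in heat-stressed preparation 1 and 3.00 in heat-stressed preparation 2. All 95% intervals below are exact Poisson or exact binomial (Clopper-Pearson) intervals of these reads and cover counting error only. Nothing in the labels says that preparations of a group came from separate cultures, so p-values measure the spread between these preparations, which may be technical.

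As background, a polycistronic cluster is a row of hairpins cut from 1 primary transcript, and each hairpin can give a 5p and a 3p mature miRNA. Bases 2 to 8 of the mature miRNA, its seed, choose most of its targets, so miRNAs of different clusters that share a seed are counted as 1 family. The miR-17-92 cluster is transcribed under MYC and E2F factors, favours proliferation and survival, and has the pro-apoptotic gene Bcl2l11 (Bim) among its known targets. Its products fall into the miR-17, miR-18, miR-19 and miR-25/92 seed families, and the paralogous clusters repeat most of them.

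The members that carried nearly all of the signal share the miR-25/92 seed and are shown with that seed in capitals, in RefSeq sequence of build GRCm38.p6 written 5′ to 3′. MiR-32-5p is no member by name but has the same seed and a row in the table, so it is shown last for comparison.
miR-92a-3p: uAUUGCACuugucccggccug
miR-25-3p: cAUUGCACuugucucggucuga
miR-92b-3p: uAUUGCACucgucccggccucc
miR-363-3p: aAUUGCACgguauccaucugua
miR-32-5p: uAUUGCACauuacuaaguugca
Counted from 1 at the 5′ end, miR-92a-3p and miR-92b-3p were identical at 19 of 21 positions and differed by U10C and G21C, with the base of miR-92a-3p first. MiR-92a-3p and miR-25-3p were identical at 18 of 21 positions and differed by U1C, C14U and C18U. How the authors' counting divided reads between such close copies is not given in the sources used here, so the split between these 3 miRNAs is uncertain. MiR-363-3p and miR-32-5p matched miR-92a-3p at 10 and 11 of 21 positions, mostly in the seed.

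The other seed family represented was that of miR-17, with the seed again in capitals. It is shown because its members miR-17-5p, miR-20a-5p, miR-20b-5p and miR-106a-5p had no row in the table analysed here, whereas these did.
miR-93-5p: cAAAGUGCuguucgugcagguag
miR-106b-5p: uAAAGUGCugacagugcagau
The remaining 4 members had a seed that no other member shared, and 3 of them are arms opposite to a miR-17 or miR-25/92 family product of the same hairpin, while miR-18a-3p is opposite to miR-18a-5p.
miR-106b-3p: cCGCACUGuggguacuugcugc
miR-25-5p: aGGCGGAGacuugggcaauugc
miR-18a-3p: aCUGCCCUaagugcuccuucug
miR-92b-5p: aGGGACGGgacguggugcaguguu

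The RefSeq table holds 28 mature products of the 16 hairpins in these clusters, of which 10 had a row here. Representation differed between clusters. From miR-106b-25 (chr5:138165321-138165818, minus strand) 5 of 6 products were listed. From miR-17-92 (chr14:115043671-115044506, plus strand) only miR-18a-3p and miR-92a-3p were listed of 11 products, and from miR-106a-363 (chrX:52741693-52742567, minus strand) only miR-363-3p and miR-92a-3p of 11. Both products of miR-92b (chr3:89227116-89227198, minus strand) were listed. By seed, all 4 products of the miR-25/92 family had a row, as did 2 of 6 of the miR-17 family, 0 of 2 of the miR-18 family and 0 of 2 of the miR-19 family.

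**Figure D1:**
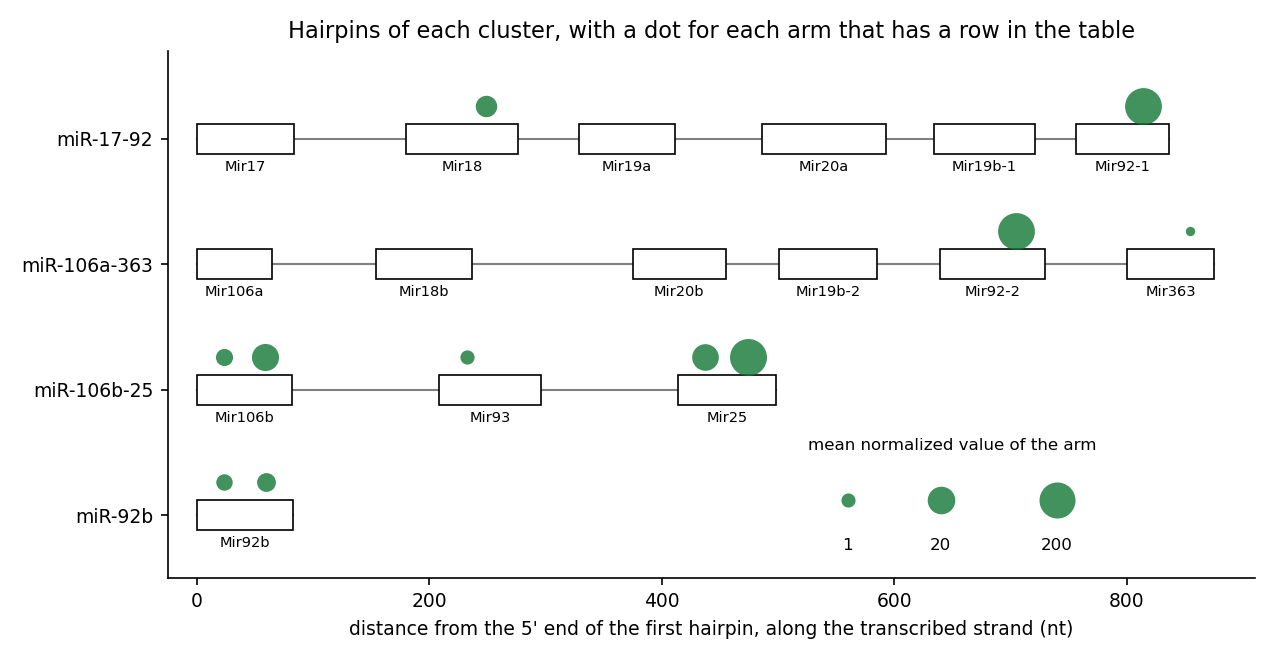
Hairpins of the 4 loci drawn to scale by distance from the first hairpin, with the area of each dot rising with log2(mean normalized value + 1) of an arm that had a row in the table (5p left, 3p right). MiR-92a-3p is drawn on both hairpins that encode it, and the only other arm of comparable size is miR-25-3p.

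The authors' build is unknown, so gene context is given from GENCODE M21 (GRCm38). The hairpins of miR-18a and miR-92a-1 lie within an exon of the long non-coding host gene Mir17hg. Mir25 and Mir93 overlap an annotated exon of Mcm7, which encodes a subunit of the replicative helicase, and Mir106b lies in an intron of that gene, all on the same strand. No other gene was annotated over Mir92b, Mir363 or Mir92-2. The mature miR-92a-3p is encoded both by Mir92-1 on chromosome 14 (115044476 to 115044496) and by Mir92-2 on chromosome X (52741854 to 52741874) with the same bases, so its reads cannot be assigned to either cluster.

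MiR-25-3p and miR-92a-3p made up nearly the whole family in these preparations. Together they held 91.8% of the summed normalized value of the 10 members over the 4 preparations. Their share of the members' reads was 79.2% and 96.0% in control preparations 1 and 2, and 95.9% and 91.7% in heat-stressed preparations 1 and 2. By mean normalized value miR-25-3p (268) ranked 36 and miR-92a-3p (255) ranked 37 of the 389 miRNAs. Far below them came miR-106b-3p (17.9), miR-25-5p (16.05), miR-18a-3p (4.94), miR-92b-3p (2.83), miR-106b-5p (1.97), miR-92b-5p (1.69), miR-93-5p (1.02) and miR-363-3p (0.250). These are levels per mature miRNA, not divided by length, and the members were 21 to 24 bases long. The order from miR-18a-3p down is not resolved, since none of these 6 members exceeded 13 reads in any preparation.

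**Figure D2:**
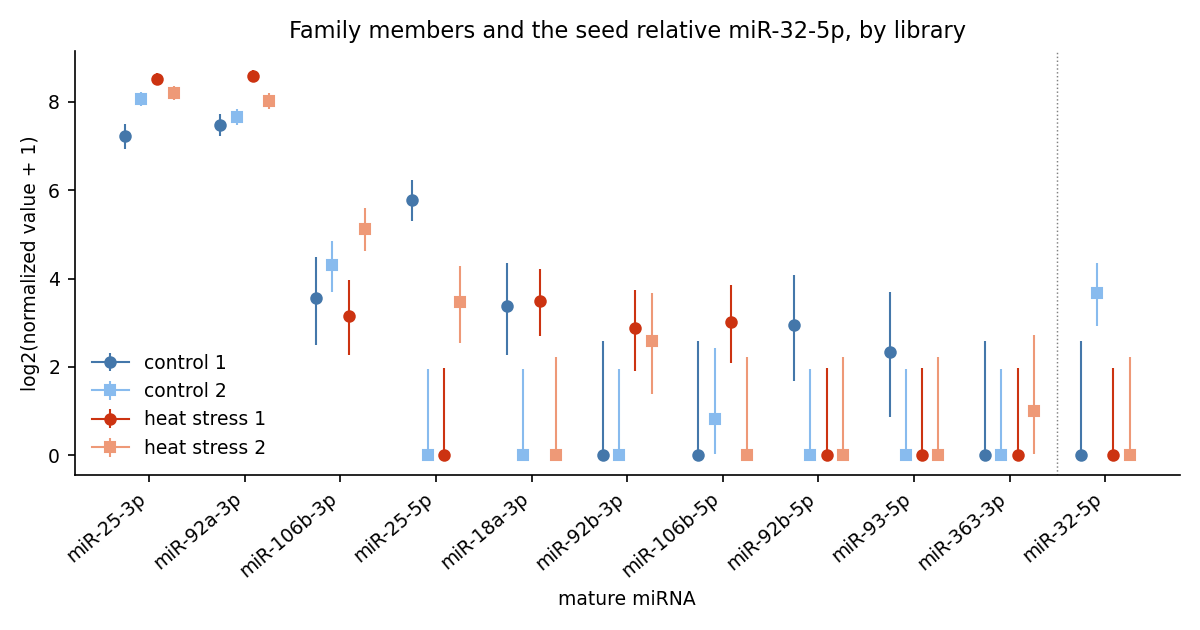
Normalized values of the 10 members and of miR-32-5p in each preparation, as log2(value + 1), with exact 95% counting intervals. MiR-25-3p and miR-92a-3p stand above all others in every preparation, with both heat-stressed preparations above both control preparations, and 7 of the 10 members are at 0 in at least 2 preparations.

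MiR-92a-3p is known for its effects in endothelial cells, where it restrains angiogenesis by repressing integrin subunit alpha 5. Its normalized value was 177 and 201 in control preparations 1 and 2 (131 and 257 reads), and 384 and 259 in heat-stressed preparations 1 and 2 (486 and 259 reads). Both heat-stressed preparations thus lay above both control preparations, and the lower heat stress value was 1.29 times the higher control value. The group means were 189 ± 16.7 (SD, n = 2) and 322 ± 88.3 (SD, n = 2), a ratio of 1.70, while the heat-stressed preparations differed from each other 1.48-fold. On the log2(value + 1) scale its change was 0.74 (standard error 0.851, adjusted p = 0.793 from limma, Benjamini-Hochberg). This was not past the threshold used, which asks for over 2-fold and an unadjusted p below 0.05. Expressed per 1000000 reads of each preparation's own miRNA total, the values were 2999 and 2705 in the control preparations and 4815 and 4089 in the heat-stressed preparations, and the gap between the groups was 1.36-fold.

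MiR-25-3p, which is known to target Bcl2l11 and the cyclin-dependent kinase inhibitor Cdkn1c, had normalized values of 148 and 266 in control preparations 1 and 2 (109 and 340 reads). In heat-stressed preparations 1 and 2 it was at 364 and 293 (461 and 293 reads). Again the groups did not overlap, but the control preparations differed 1.80-fold from each other, more than the 1.10-fold between the higher control and the lower heat-stressed preparation. The group means were 207 ± 83.7 (SD, n = 2) and 329 ± 50.2 (SD, n = 2), a ratio of 1.59. Its log2 change was 0.72 (standard error 0.878, adjusted p = 0.808 from limma, Benjamini-Hochberg), not past the threshold. Per 1000000 reads of the preparation total it was at 2496 and 3578 in the control preparations and at 4567 and 4626 after heat stress.

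For both miRNAs the heat-stressed preparations were higher under either scaling. The changes were smaller than the standard error of limma's main fit, which shares its variance across all miRNAs tested. The standard errors of miR-92a-3p and miR-25-3p were 0.578 and 0.574 when the variance prior followed mean level. Among miRNAs with at least 10 reads in every preparation they were 0.489 and 0.526. These were smaller than the changes, and neither miRNA passed the threshold in either setting. Of the 9 members tested, 3 (this pair and miR-92b-3p) had both heat-stressed preparations above both controls and 0 had both below. MiR-92b-3p, at 0 in both controls, was tested only because of its heat stress values, so its place in this count carries no weight. Among the 313 miRNAs tested, 16.0% had both heat-stressed preparations above both control preparations and 11.5% had both below, and the median log2 change was 0.12. Of the 62 miRNAs tested that had a mean normalized value of at least 100, 24.2% had both heat-stressed preparations above and 61.3% a positive change, as both of these members did, and their median log2 change was 0.17. A two-sided exact permutation test of 2 preparations against 2 cannot give a p below 0.333, so it cannot pass 0.05 for any single miRNA.

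The balance between the 2 abundant paralogs was compared within each preparation, where scaling cancels. The ratio of miR-92a-3p to miR-25-3p was 1.20 (95% interval 0.925 to 1.56) in control preparation 1 and 0.756 (0.640 to 0.891) in control preparation 2. It was 1.05 (0.926 to 1.20) in heat-stressed preparation 1 and 0.884 (0.745 to 1.05) in heat-stressed preparation 2. Only in control preparation 2 did the interval exclude equal amounts, where miR-25-3p was the more abundant, and in the other 3 preparations the order was not resolved. The log2 of the ratio had a mean of -0.07 ± 0.47 (SD, n = 2) in controls and of -0.05 ± 0.18 (SD, n = 2) in heat-stressed preparations, and these means lay closer together than the replicates of either group.

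Summed over its 5 listed members (the 4 family members and miR-32-5p), the miR-25/92 seed family reached 325 and 479 in control preparations 1 and 2, and 755 and 559 in heat-stressed preparations 1 and 2. The groups did not overlap, and the ratio of their means was 1.63. Nearly all of this sum was miR-92a-3p and miR-25-3p, so it is not a result separate from theirs. Other abundant seeds also had groups without overlap. ACCCUGU was higher after heat stress (5110 and 4893 in controls, then 7464 and 5990). GGGACUU was lower (4120 and 3492, then 2768 and 860). How many of all listed seeds separated in either direction was not counted. As a share of preparation reads the seed family made up 0.550% and 0.644% of the control preparations and 0.946% and 0.881% of the heat-stressed preparations. Among the 276 seeds of the 325 listed miRNAs with a RefSeq sequence it ranked 14 by mean summed value. The miR-17 seed ranked 168, with a summed value of 4.06 and 0.782 in the control preparations and 7.11 and 0 in the heat-stressed preparations. The 64 listed miRNAs without a sequence could not enter these sums. No test was made of a sum over members.

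**Figure D3:**
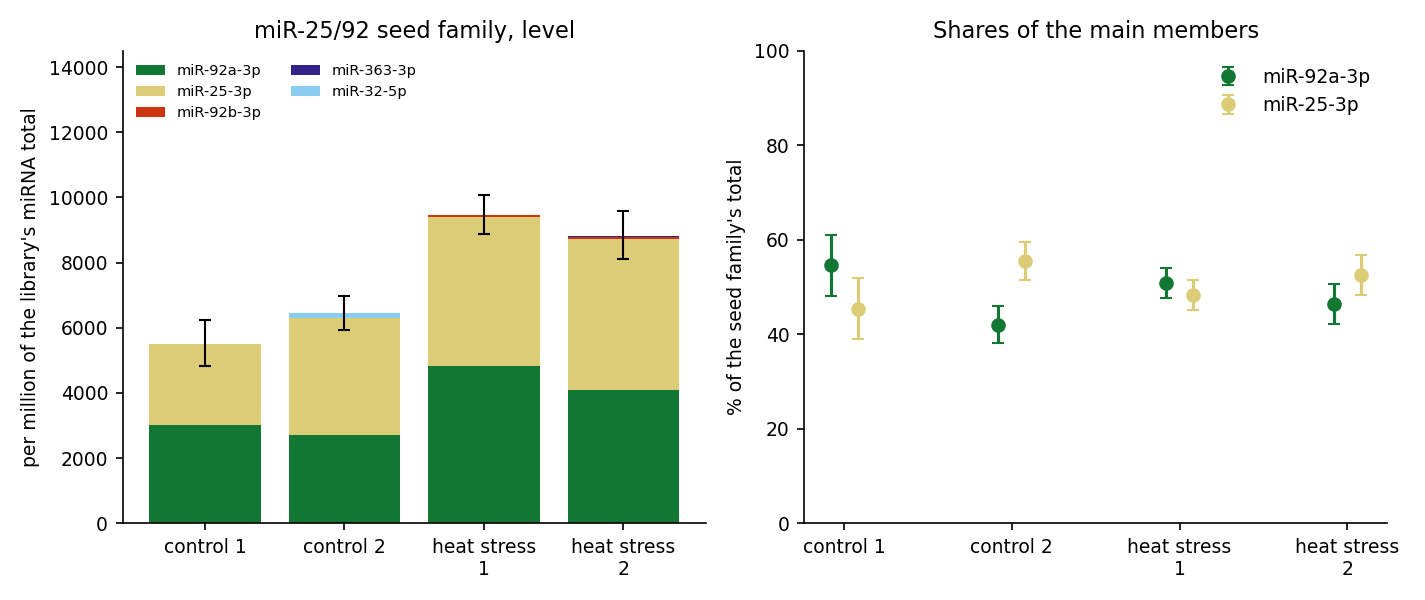
Left, level of the miR-25/92 seed family per 1000000 reads of each preparation's miRNA total, stacked by miRNA (exact 95% interval of the sum). Right, share of the family's reads on miR-92a-3p and miR-25-3p with exact 95% intervals. Both heat stress bars stand above both control bars, and the shares of the main members range from 42.0% to 55.6%.

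MiR-92b-3p, the abundant paralogs' close copy from its own locus, was listed at 0 in both control preparations. Heat-stressed preparation 1 held 8 reads of it (a value of 6.32) and heat-stressed preparation 2 held 5 reads (5.005). The counting intervals were 3.45 to 15.8 and 1.62 to 11.7 reads, against an upper limit of 3.69 reads in each control preparation by the same interval. Its log2 change was 2.73 (standard error 0.834, adjusted p = 0.612 from limma, Benjamini-Hochberg). Its unadjusted limma p was 0.0226, which comes from limma's model, since an exact permutation test of these 4 preparations cannot go below 0.333. It met the minimum mean value for testing only through the heat-stressed preparations, so a member at 0 in both controls had to differ in order to be tested at all. With no minimum its unadjusted limma call was unchanged (adjusted p = 0.569), and over all settings, leaving out each preparation included, its adjusted p ranged from 0.0337 (without heat-stressed preparation 2) to 0.878. With that limit, it was the only one of the 9 members tested that passed the threshold, where 4.47% of the 313 miRNAs tested were past it as higher, 2.88% as lower and 7.35% in either direction. After adjustment over all miRNAs, limma called 0 at an adjusted p under 0.05, against 23 at an unadjusted p under 0.05. Against 3 reads in each control preparation the mean heat stress value was 1.77 times as high. This ratio is no lower limit, since it leaves out the counting error of the heat stress reads. As normalized values, the counting intervals reached down to 2.73 and 1.63 in heat-stressed preparations 1 and 2. Those of control preparations 1 and 2 reached up to 4.997 and 2.89. These intervals overlapped between the groups, which is no test of a change. They neither show nor exclude a change of more than 2-fold. As a share of the seed family, miR-92b-3p was 0.838% in heat-stressed preparation 1 and 0.896% in heat-stressed preparation 2. In the controls 0 of 240 and 0 of 612 family reads fell on it, and the upper limits of the exact 95% intervals were 1.53% and 0.601%. The intervals of the heat-stressed preparations (0.362% to 1.64% and 0.292% to 2.08%) overlapped those of the controls, which is no test of a difference in share, and none was made. The opposite arm, miR-92b-5p, was at 6.77 (5 reads) in control preparation 1 and at 0 in the other 3, with a log2 change of -1.48 (standard error 1.25, adjusted p = 0.686 from limma). The 2 arms of this hairpin were thus never listed above 0 in the same preparation.

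**Figure D4:**
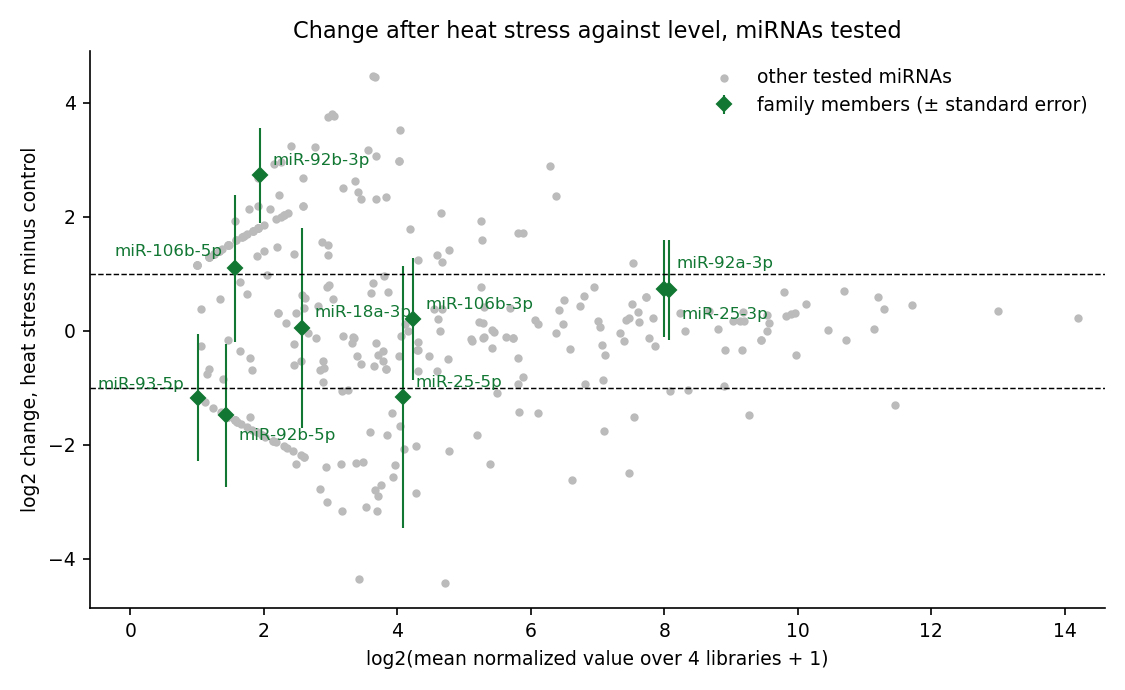
Log2 change (heat stress minus control, on the log2(value + 1) scale) against log2(mean normalized value + 1) for the 313 miRNAs tested, with the 9 members tested in green with the standard error of limma's fit, and dashed lines at 2-fold. Members with low values carry wide errors on both sides of 0, and miR-92a-3p and miR-25-3p sit together at 0.74 and 0.72.

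The miR-106b-25 cluster was the only one of several hairpins with products of each of its hairpins in the table, so arms and neighbours of 1 primary transcript could be compared. MiR-106b-3p had values of 10.8 and 18.8 without heat stress, against 7.90 and 34.0 with it. The heat-stressed preparations therefore lay on either side of the controls, with a log2 change of 0.21 (standard error 1.07, adjusted p = 0.983 from limma). MiR-25-3p was 13.6 and 14.2 times as abundant as miR-106b-3p in control preparations 1 and 2, but 46.1 times in heat-stressed preparation 1 and 8.62 times in heat-stressed preparation 2. These ratios rested on 8 and 24 reads of miR-106b-3p in the controls and on 10 and 34 after heat stress. No interval was computed for them. MiR-106b-5p, of the miR-17 seed family, was at 0 in control preparation 1, at 0.782 (1 read) in control preparation 2, at 7.11 (9 reads) in heat-stressed preparation 1 and at 0 in heat-stressed preparation 2. Its log2 change of 1.09 (standard error 1.30) rested on heat-stressed preparation 1 and did not pass the threshold. MiR-93-5p, which with miR-106b-5p represses the cell cycle inhibitor Cdkn1a, was seen only as 4.06 (3 reads) in control preparation 1, and it met the minimum mean value for testing through that preparation alone. Summed over the cluster, the value was 217 and 286 in the control preparations and 379 and 337 in the heat-stressed preparations. The ratio of means was 1.43, and miR-25-3p supplied most of it.

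The hairpin of miR-25 (chr5:138165321-138165404, minus strand) is printed with its arms in capitals, since the arms behaved differently, miR-25-5p first and miR-25-3p second.
Mir25: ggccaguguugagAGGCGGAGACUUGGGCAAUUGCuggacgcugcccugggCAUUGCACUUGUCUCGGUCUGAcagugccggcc
MiR-25-5p was at 54.2 (40 reads) in control preparation 1, at 0 in control preparation 2, at 0 in heat-stressed preparation 1 and at 10.01 (10 reads) in heat-stressed preparation 2. It was thus above 0 in 1 preparation of each group and listed at 0 in the other. In control preparation 1 it made up 26.8% of the reads of both arms (95% interval 19.9 to 34.7). In control preparation 2 it held 0 of 340 reads, with an upper limit of 1.08%, and in heat-stressed preparation 1 it held 0 of 461, with an upper limit of 0.797%. In heat-stressed preparation 2 it held 3.30% (1.59 to 5.99). The intervals did not overlap between the 2 control preparations, nor between the 2 heat-stressed preparations. Its log2 change of -1.16 (standard error 2.30, adjusted p = 0.960 from limma) did not pass the threshold. Such gaps were common in these preparations. A 0 beside 10 or more reads in the replicate was found for 44 of the 389 miRNAs among controls and for 37 after heat stress. Among members, these were miR-25-5p in both groups and miR-18a-3p in the heat stress group. For miR-106b the 5p arm held 0 of 8 reads and 4.00% in the control preparations. It held 47.4% (24.4 to 71.1) in heat-stressed preparation 1 and 0 of 34 reads in heat-stressed preparation 2, so this arm share also differed between the heat-stressed replicates, whose intervals did not overlap (upper limit 10.3% in the second).

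**Figure D5:**
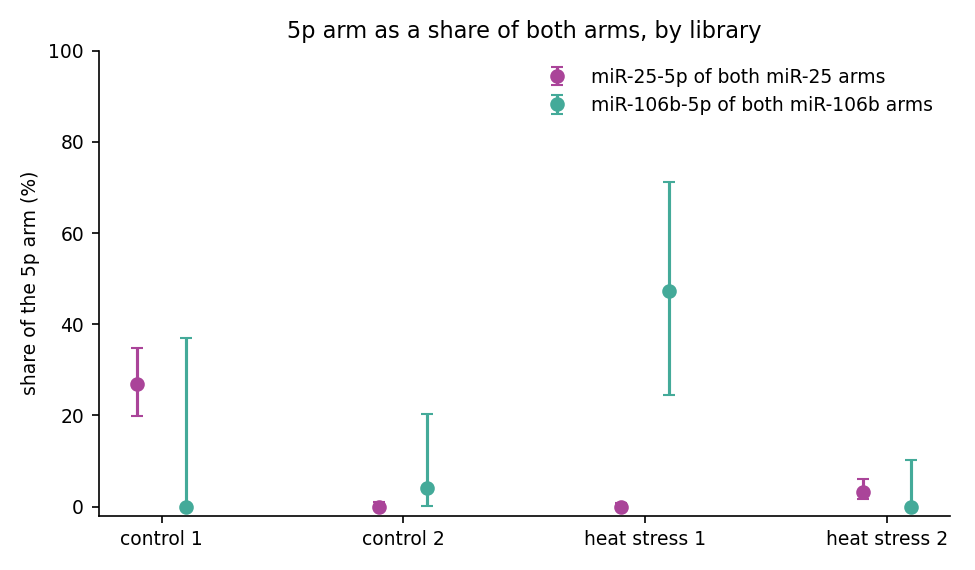
Share of the 5p arm among the reads of both arms of miR-25 and miR-106b in each preparation, with exact 95% intervals. For miR-25 the intervals of control preparation 1 (26.8%) and of heat-stressed preparation 2 (3.30%) each lie above those of the 2 preparations at 0 and do not overlap each other, and for miR-106b heat-stressed preparation 1 (47.4%) is highest, with an interval that overlaps that of control preparation 1 (0 of 8 reads).

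From miR-17-92 itself, the single product that the other clusters do not encode was miR-18a-3p. It was at 9.48 (7 reads) in control preparation 1, at 0 in control preparation 2, at 10.3 (13 reads) in heat-stressed preparation 1 and at 0 in heat-stressed preparation 2. The groups overlapped fully and the log2 change was 0.05 (standard error 1.76, adjusted p = 0.997 from limma). It was -0.14 with each preparation scaled to the same total, so no direction can be given. MiR-363-3p, the last product of the miR-106a-363 cluster, was 1 read (1.00) in heat-stressed preparation 2 and 0 elsewhere. Its mean was below the minimum of 1, so it was the 1 member not tested. MiR-32-5p, the seed relative from an intron of Tmem245, was at 11.7 (15 reads) in control preparation 2 and at 0 in the other 3 preparations, which is 2.45% of the seed family there. Its log2 change was -1.84 (standard error 1.43, adjusted p = 0.686 from limma). Of the 10 members, 3 were above 0 in all 4 preparations, 4 in 2 preparations and 3 in 1 preparation. Of all 389 miRNAs 36.2% were above 0 in all 4 and 37.8% in 1, so in these classes the members were much like the rest.

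Of the 9 members tested, 1 was higher past the threshold and 0 were lower, beside 4.47% and 2.88% of the 313 miRNAs tested. The 1 was miR-92b-3p, at 0 in both controls and tested only because of its heat stress values. The log2 change was above 0 in 6 of the 9, and in 52.7% of the 313. The median log2 change of the 9 was 0.21, beside 0.12 over all 313. MiR-92b-3p and miR-106b-5p met the minimum mean value for testing only through heat-stressed preparations. For miR-93-5p and miR-92b-5p it was met only through control preparation 1. The count of positive changes and the median rest partly on directions that the filter fixed, so they carry no weight. The 1 call depended on how the variance was shared. When the variance prior followed mean level, miR-92b-3p no longer passed (adjusted p = 0.878 from limma) and 0 members were past the threshold. Without heat-stressed preparation 2, miR-92a-3p also passed, with a log2 change of 1.02 (adjusted p = 0.24 from limma). Without control preparation 2, miR-93-5p (-2.34) and miR-92b-5p (-2.96) passed as lower, on 3 and 5 reads in control preparation 1.

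The miRNAs nearest in level to the abundant pair were miR-3473e directly above it (547 and 205 in the control preparations, 128 and 201 after heat stress) and miR-24-3p directly below it (214 and 296, then 183 and 236). Neither had the pattern of the pair across preparations. By mean normalized value, miR-92b-3p stood between miR-32-5p and miR-503-3p. The profile of miR-92a-3p over the 4 preparations, as log2(value + 1) centred on its mean, was most like those of miR-26a-5p, miR-674-3p and miR-10b-5p, with root-mean-square differences of 0.17, 0.18 and 0.19. MiR-26a-5p was at 959 and 909 in the control preparations and at 1505 and 1105 in the heat-stressed preparations, miR-674-3p at 157 and 149, then 238 and 188, and miR-10b-5p at 2917 and 2730, then 4413 and 3340. MiR-25-3p came 7 in this order of 312 miRNAs (0.25), miR-106b-5p 105 and miR-106b-3p 111, while miR-25-5p came 311. The profile of miR-92b-3p was most like those of miR-503-3p (0.15), miR-1843a-3p (0.18) and miR-345-3p (0.27), all at 0 in both control preparations. These are descriptions over 4 preparations and carry no test.

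Lists of miRNAs associated with cell types were looked at in the same preparations. Of 6 miRNAs associated with astrocytes or glia all had a row, and their summed value was 1376 to 1470 in the control preparations and 1613 to 2161 in the heat-stressed preparations. Most of this difference lay in miR-26a-5p, whose values are given above. The log2 change was -0.53 for miR-23b-3p and -0.18 for miR-29a-3p, but 0.35 for miR-21a-5p, 0.76 for miR-181a-5p and 2.89 for miR-9-5p. MiR-21a-5p, miR-181a-5p and miR-9-5p each overlapped between the groups, and miR-9-5p was at 0 in control preparation 2. None of these passed the threshold. Of 5 neuronal miRNAs 4 were listed, with sums of 627 to 831 in the controls and 425 to 522 after heat stress. MiR-128-3p took a large part of these sums, at 531 and 540 in the controls and at 465 and 382 after heat stress. MiR-218-5p was at 51.5 and 289, then 35.6 and 10.01, so its high control value rested on control preparation 2. The log2 change was -0.34 for miR-128-3p and -2.62 for miR-218-5p, but 1.32 for miR-129-5p, which overlapped between the groups. MiR-124-3p, the defining neuronal miRNA, did not exceed 4.06. The lists of oligodendrocytes (1 of 3 listed, at most 1.58) and of microglia or myeloid cells (3 of 4, sums of 21.1 to 43.3 and 32.4 to 33.0) were low. Of the latter, miR-223-3p was at 0 in both control preparations and in heat-stressed preparation 2, and at 0.790 in heat-stressed preparation 1. Because miR-92a-3p and miR-25-3p are also abundant in red blood cells and serum, a list of such miRNAs was included. Of its 7 miRNAs 6 were listed, and the sum, with the identical values of miR-486a-5p and miR-486b-5p counted once, was 610 to 1042 in the control preparations and 653 to 832 in the heat-stressed preparations, overlapping between the groups. MiR-451a, the defining red blood cell miRNA, had values of 17.6 and 23.5 without heat stress and of 15.0 and 37.0 with it, also overlapping. MiR-16-5p was the only miRNA of these lists past the threshold, at 0 and 0, then 19.0 and 8.01 (adjusted p = 0.513 from limma). Like miR-92b-3p, it met the minimum mean value for testing only through the heat-stressed preparations, so it had to differ in order to be tested. The part of the astrocyte and neuronal lists in the values of the family was not tested.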

How the data were processed

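Small RNA was sequenced from 2 control and 2 heat stress preparations. According to the study's methods, adapters, reads that were too short and reads of low quality had been removed by the authors. The methods name Bowtie, and the submitters' processing notes name FastQC and BWA. Genome build, miRNA annotation release and unit are not given in the sources used here. The values deposited by the authors are a normalized signal, 1 per miRNA and library. Dividing each library's values by its step gave whole numbers, and their median-of-ratios size factors (0.738 and 1.28 in controls, 1.27 and 0.999 after heat stress) were the inverse of the steps. The authors' deposited columns of a log2 fold change and a p-value, and their table of selected miRNAs, were not used. Count models were not run, because the criterion for taking steps as reads was met in only 2 of the 4 libraries.

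Testing was done on log2(value + 1), with limma (version 3.58.1, R version 4.3.3) for the 313 miRNAs averaging 1 or more, in a model of condition alone with p-values adjusted by Benjamini-Hochberg. Adding 1 understates the change of low values. The threshold, over 2-fold and an unadjusted p below 0.05, was taken from the methods. The script was tested on simulated data. Alternatives covered the pseudocount, filters, scaling, variance prior, a replicate block and leaving out each library. Sequences came from RefSeq (GRCm38.p6), where 325 of the 389 miRNAs and all 10 members matched by name. The named miRNAs were all members, miRNAs sharing a seed with them, those next to miR-92a-3p and miR-92b-3p by mean value, and the 3 with the most similar profile to each. MiR-3473e, the neighbour of miR-25-3p, and the single miRNAs of the marker lists were named after their values were seen. Members and lists were chosen with earlier results of these data known, and the marker lists were written from general knowledge. Figures were drawn with matplotlib (version 3.10.9).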

Additional observations from a re-analysis of the deposited data

How the results depend on the processing

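MiR-92a-3p and miR-25-3p kept a positive log2 change that was not past the threshold in every setting that used all 4 libraries (0.64 to 0.74 and 0.62 to 0.72). Scaling to library totals lowered the median change of all miRNAs tested from 0.12 to 0.02 on the log2 scale. MiR-92b-3p stayed past the threshold in each setting with all 4 libraries that tested it, with values from 2.69 to 6.32, except when the variance prior followed mean level (2.73, adjusted p = 0.878). MiR-18a-3p reversed with library totals (-0.14) and with log2(CPM + 1) (-0.16). The number of members past the threshold was 0 with that variance prior and 0 of the 2 members left with at least 10 reads in every library. Over all miRNAs, 2 were higher and 5 lower with at least 10 reads in every library, 6 were higher with that prior, and 2 were lower with a pseudocount of 0.1 and 3 with log2(CPM + 1), against 14 and 9. The filter on 10 reads left 104 miRNAs to test, and otherwise the cause was not tested.

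With the replicate block 10 were higher and 4 lower, and 1 member, miR-92b-3p, passed (adjusted p = 0.735). The block changed no member's call. No label ties a replicate number to a batch. Over 313 miRNAs, deviations from the group means correlated at -0.019 (Pearson) between libraries of equal number, so there is no sign of pairing beyond the number.

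Leaving out 1 library assumes that the lone library of its group varies like the other group. The log2 change then ranged from 0.45 to 1.02 for miR-92a-3p, from 0.30 to 1.14 for miR-25-3p, from -0.78 to 1.20 for miR-106b-3p, from -1.69 to 1.80 for miR-18a-3p, from -4.06 to 1.73 for miR-25-5p, from 2.59 to 2.87 for miR-92b-3p, from -2.34 to 0 for miR-93-5p, from -0.42 to 2.60 for miR-106b-5p and from -2.96 to 0 for miR-92b-5p. The number of members past the threshold ranged from 1 to 3 (3 without control library 2, 2 without heat stress library 2), and over all miRNAs from 10 to 39 higher and from 3 to 27 lower. The ratio of summed values ranged from 1.37 to 2.02 for the miR-25/92 seed family and from 1.25 to 1.65 for the miR-106b-25 cluster. Depth limits every member other than miR-92a-3p and miR-25-3p to at most 40 reads in a library.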

Other observations

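Short motifs that have been described in miRNAs sorted into vesicles were searched in the mature sequences, on the miRNA strand only. GGAG occurred in 1 of the 10 members (miR-25-5p), in 17.5% of the 325 listed miRNAs with a RefSeq sequence and in 14.2% of all 1679 mature miRNAs of the RefSeq table. CCCU occurred in 1 member (miR-18a-3p), in 9.23% of those listed and in 11.4% of all. GGCU occurred in 0 members, in 16.9% of those listed and in 13.3% of all. The 2 abundant members, miR-92a-3p and miR-25-3p, held none of these motifs, which says nothing about how they entered the preparations.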
